A study of Homo sapiens with 24 samples.

Results

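The hepatocyte transcription factors examined here are 8 genes, HNF4A, FOXA1, FOXA2, FOXA3, ONECUT1, ONECUT2, CEBPA and NR1H4, followed in PLC/PRF/5 and SNU-449, human cell lines established from hepatocellular carcinoma (HCC). They were taken as all non-control probes whose accession belongs to one of these genes, which gave 1 probe for each gene, so 8 of 58201 probes and 8 of 31204 named genes. Each line was starved of serum overnight and then left untreated (control), treated with TGFβ1 at 1 ng/mL, treated with galunisertib at 10 µM, or treated with both for 16 h. Galunisertib blocks the kinase activity of TGFβ receptor type 1. There were 3 independent cultures per line and treatment, hence 8 groups and 24 one-colour Agilent arrays, and no other allele or agent set the groups apart. The cultures are replicates of a single line each.

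These factors act together to switch on the genes of the hepatocyte. FOXA1, FOXA2 and FOXA3 are forkhead proteins known as pioneer factors, because they can bind their sites in closed chromatin. ONECUT1 (HNF6) and ONECUT2 are cut-homeodomain factors of liver and biliary development. HNF4A is a nuclear receptor that drives genes of lipid transport, coagulation and metabolism, CEBPA is a basic leucine zipper factor of hepatocyte maturation and gluconeogenesis, and NR1H4 (FXR) is the bile acid receptor. They bind one another's promoters, and the autocrine and paracrine cytokine TGFβ is known to lower hepatocyte identity during epithelial-to-mesenchymal transition.

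Promoter sequences are shown for HNF4A, the member on which the liver factors are known to converge, and for ONECUT1, whose response to galunisertib differed most between the lines. Each is RefSeq sequence of GRCh38.p14, from 250 bases before to 50 bases after a start site, read 5′ to 3′ along the gene. Capitals mark the letters ATTGAT of the ONECUT recognition motif or their reverse complement ATCAAT. HNF4A has an upstream window at chr20:44355449-44355748 and a downstream window at chr20:44400989-44401288, both on the plus strand with starts 45540 bases apart, and the ONECUT1 window lies at chr15:52790287-52790586 on the minus strand.
HNF4A, upstream start: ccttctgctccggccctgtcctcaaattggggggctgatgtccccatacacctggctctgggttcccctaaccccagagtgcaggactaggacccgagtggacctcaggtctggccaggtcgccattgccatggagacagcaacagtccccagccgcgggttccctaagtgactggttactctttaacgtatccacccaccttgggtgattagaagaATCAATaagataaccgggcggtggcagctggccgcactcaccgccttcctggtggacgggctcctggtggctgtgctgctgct
HNF4A, downstream start: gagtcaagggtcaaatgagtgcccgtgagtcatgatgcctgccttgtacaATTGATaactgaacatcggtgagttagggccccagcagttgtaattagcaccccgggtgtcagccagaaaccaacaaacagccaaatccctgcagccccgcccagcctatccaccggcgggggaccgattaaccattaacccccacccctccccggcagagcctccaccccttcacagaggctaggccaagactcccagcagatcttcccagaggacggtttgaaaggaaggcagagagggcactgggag
ONECUT1: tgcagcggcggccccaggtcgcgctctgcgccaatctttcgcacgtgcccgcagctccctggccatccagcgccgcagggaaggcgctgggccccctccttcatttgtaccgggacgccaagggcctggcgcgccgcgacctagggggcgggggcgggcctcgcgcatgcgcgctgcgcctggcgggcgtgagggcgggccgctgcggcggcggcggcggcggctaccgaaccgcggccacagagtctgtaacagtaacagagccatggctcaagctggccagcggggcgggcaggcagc

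Both HNF4A windows held the ONECUT motif, at position -33 in the upstream window and at position -200 in the downstream window, counted from the start site to the first base of the match. The same 6 letters occurred on either strand in 6.26% of 35116 promoters of this length. Windows were given for 7 of the 8 genes, FOXA2 being the exception, and the motif was not found in the windows of the other genes. The forkhead motifs TGTTTAC and TATTTAC, the ONECUT motif ATCGAT, the C/EBP motifs TTGCGCAA and TTGCNNAA, the HNF4A motif CAAAGTCC and the SMAD motifs CAGACA and GTCTAGAC matched none of the 8 windows, and they occurred in 3.42%, 2.67%, 0.763%, 0.151%, 10.5%, 1.20%, 16.9% and 0.202% of all promoters, respectively. TTGCGCAA is contained in TTGCNNAA.

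Levels are given as log2 of the background-corrected intensity over the 75th percentile of the array, so that 0 is the 75th percentile, and they are compared for one gene across arrays and not between genes. The floor was set at -4.13, the usual weakest signal well above background. With TGFβ1 the direct TGFβ target SMAD7 was higher by 0.80 (SE 0.11) in PLC/PRF/5 and by 0.65 (SE 0.13) in SNU-449, and with galunisertib on average it was lower by -0.99 (SE 0.07) and -1.53 (SE 0.09). All 5 hepatocyte markers (ALB, SERPINA1, APOB, TTR, AHSG) were well above background on the 12 arrays of PLC/PRF/5, whereas in SNU-449 only SERPINA1 and TTR were on all 12 arrays, and APOB and AHSG were on none. Of 4 mesenchymal markers, VIM and PDGFRB were well above background on all 12 arrays of each line, and COL1A1 and ACTA2 on every SNU-449 array and no PLC/PRF/5 array. Of 3 endothelial markers, VWF was so on all 12 arrays of each line and PECAM1 on none, and of 2 leukocyte markers CD14 was on all 12 arrays of each line and PTPRC on all 12 of PLC/PRF/5. Of 4 cholangiocyte markers, KRT7 and SOX9 were on all 12 arrays of each line, EPCAM on all 12 of PLC/PRF/5 and KRT19 on no SNU-449 array. Summed levels of the markers, as multiples of the 75th percentile, ran from 404 to 665 in PLC/PRF/5 and from 0.393 to 0.584 in SNU-449 for hepatocytes, 148 to 220.2 and 245 to 580.4 for mesenchymal cells, 23.9 to 35.7 and 75.7 to 447 for cholangiocytes, 0.277 to 0.427 and 0.197 to 0.413 for leukocytes, and 0.210 to 0.397 and 0.177 to 0.328 for endothelial cells. Their part in the differences was not tested. Arrays without TGFβ1 were in the first row of each slide and arrays with TGFβ1 in the second row. PLC/PRF/5 arrays were in columns 1 and 2, without and with galunisertib, and SNU-449 arrays in columns 3 and 4 likewise. Each group kept its position on all 3 slides, so position cannot be told apart from line or treatment. The 75th percentile was 144.9 to 262 intensity units, with the first control array of PLC/PRF/5 the dimmest. In bulk RNA, fewer cells with a transcript and less transcript per cell cannot be told apart.

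**Figure D1:**
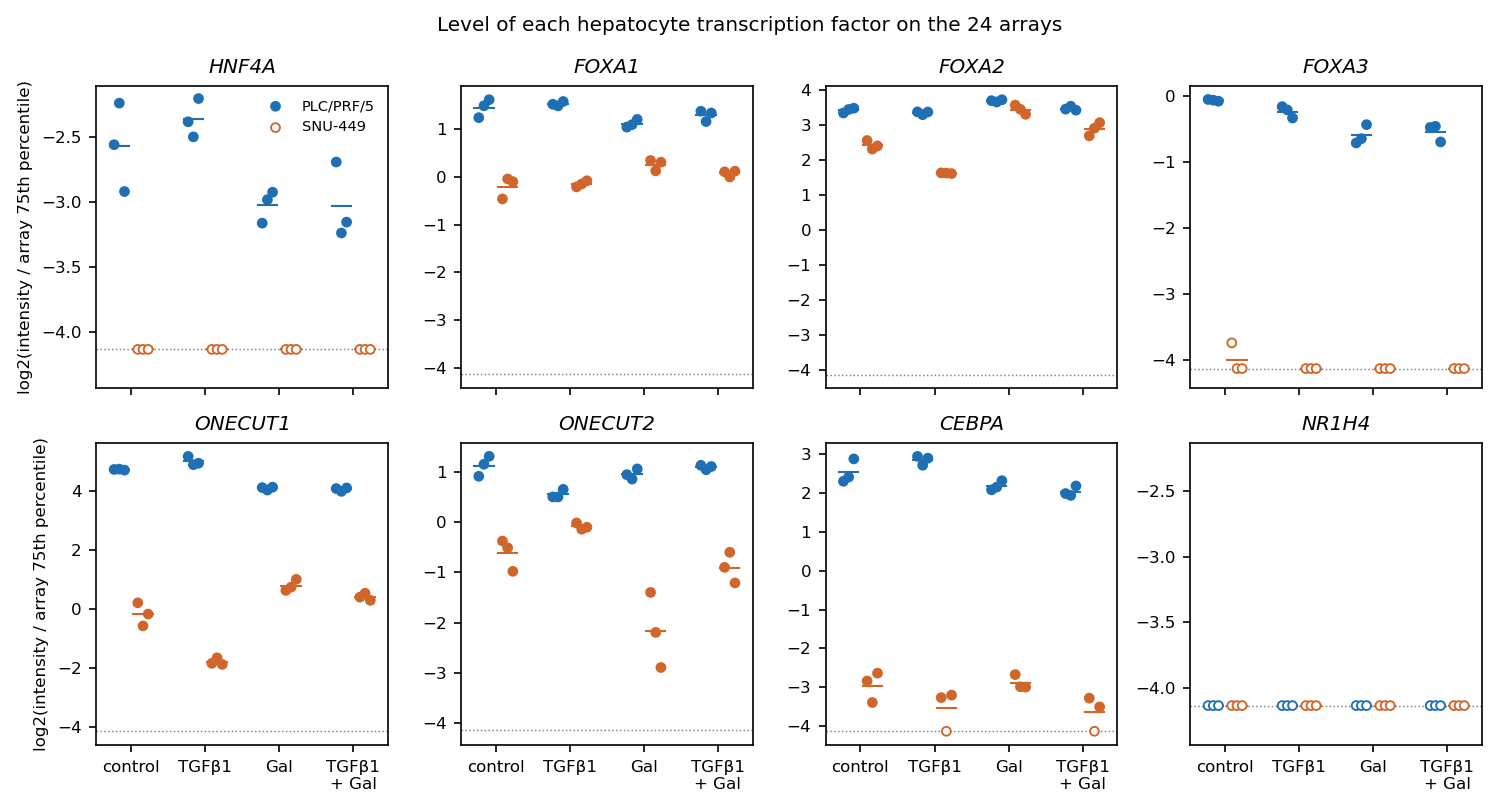
Level of each factor on the 24 arrays, as log2 of intensity over the array's 75th percentile, by treatment. Points are cultures, lines are group means, open points are arrays where the probe was not well above background, and the dotted line is the floor at -4.13. PLC/PRF/5 arrays lie above SNU-449 arrays for each factor measured in both lines except FOXA2, and NR1H4 is at the floor throughout.

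Of the nuclear receptors, HNF4A was measured in PLC/PRF/5 only. Its level was -2.56, -2.24 and -2.92 in the control cultures 1 to 3, -2.38, -2.50 and -2.20 with TGFβ1, -3.16, -2.98 and -2.92 with galunisertib, and -2.69, -3.24 and -3.15 with both. The galunisertib arrays were below the TGFβ1 arrays, their highest and the lowest control array both rounded to -2.92, and the arrays with both agents reached into the control range. In SNU-449 the HNF4A probe exceeded background clearly (by the scanner software's flag for signals well above background) on none of 12 arrays. The NR1H4 probe did so on none of the 24 arrays and was not tested. The HNF4A probe was listed under 1 transcript, and which of the gene's transcripts it reads was not examined. The HNF4A levels are therefore those of this probe.

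Among the forkhead factors, FOXA1 was read by 10 spots per array, of which 9 or 10 were usable, with an SD between spots of 0.06 to 0.24. Its level in PLC/PRF/5 was 1.25, 1.50 and 1.62 in control, 1.53, 1.49 and 1.59 with TGFβ1, 1.05, 1.10 and 1.21 with galunisertib, and 1.38, 1.17 and 1.35 with both. In SNU-449 it was -0.46, -0.04 and -0.10 in control, -0.20, -0.14 and -0.08 with TGFβ1, 0.35, 0.13 and 0.31 with galunisertib, and 0.11, 0.00 and 0.12 with both. No SNU-449 array reached the lowest PLC/PRF/5 array, the galunisertib group had the lowest mean of PLC/PRF/5 and the highest of SNU-449, and control and TGFβ1 overlapped in each line.

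FOXA2 differed least between the untreated lines of the members tested. In PLC/PRF/5 it was 3.34, 3.44 and 3.48 in control, 3.38, 3.29 and 3.37 with TGFβ1, 3.70, 3.66 and 3.72 with galunisertib, and 3.45, 3.54 and 3.42 with both. In SNU-449 it was 2.56, 2.31 and 2.40 in control, 1.63, 1.63 and 1.61 with TGFβ1, 3.57, 3.45 and 3.31 with galunisertib, and 2.69, 2.91 and 3.07 with both. The 4 SNU-449 groups were fully separated, in the order galunisertib, both agents, control, TGFβ1, and SNU-449 with galunisertib overlapped untreated PLC/PRF/5. FOXA3 was measured in PLC/PRF/5 only, at -0.05, -0.07 and -0.08 in control, -0.16, -0.21 and -0.34 with TGFβ1, -0.71, -0.65 and -0.44 with galunisertib, and -0.48, -0.46 and -0.70 with both. Its galunisertib arrays, with or without TGFβ1, were all below the other 6, and in SNU-449 its probe was never well above background.

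ONECUT1 moved furthest between treatments of one line. Its level in PLC/PRF/5 was 4.71, 4.72 and 4.69 in control, 5.15, 4.87 and 4.92 with TGFβ1, 4.10, 4.02 and 4.11 with galunisertib, and 4.07, 3.97 and 4.09 with both. In SNU-449 it was 0.21, -0.57 and -0.17 in control, -1.84, -1.65 and -1.87 with TGFβ1, 0.63, 0.74 and 1.00 with galunisertib, and 0.40, 0.53 and 0.29 with both. All 4 SNU-449 groups were separate, and in PLC/PRF/5 the 6 galunisertib arrays lay below the control arrays, which lay below the TGFβ1 arrays, so that the order of control, TGFβ1 and galunisertib was opposite in the lines. ONECUT2 in PLC/PRF/5 was 0.91, 1.15 and 1.31 in control, 0.50, 0.50 and 0.65 with TGFβ1, 0.94, 0.85 and 1.06 with galunisertib, and 1.13, 1.04 and 1.10 with both. In SNU-449 it was -0.38, -0.51 and -0.98 in control, -0.02, -0.14 and -0.10 with TGFβ1, -1.40, -2.19 and -2.89 with galunisertib, and -0.90, -0.60 and -1.21 with both. TGFβ1 alone stood lowest in PLC/PRF/5 and highest in SNU-449, and control and both agents overlapped in each line.

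CEBPA in PLC/PRF/5 was 2.31, 2.42 and 2.88 in control, 2.95, 2.72 and 2.90 with TGFβ1, 2.09, 2.16 and 2.32 with galunisertib, and 1.99, 1.94 and 2.19 with both. The TGFβ1 arrays were above all 6 galunisertib arrays, whereas neighbouring groups in the order overlapped. In SNU-449 it was -2.84, -3.39 and -2.64 in control and -2.67, -2.99 and -3.00 with galunisertib, and with TGFβ1 it was -3.27 and -3.20 in cultures 1 and 3 and with both agents -3.28 and -3.50 in cultures 1 and 3. Culture 2 of each of the latter groups was not well above background. The 4 SNU-449 groups ran close to the floor, each overlapping its neighbour.

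In untreated cells the 5 members whose probe was well above background on the control arrays of both lines were each higher in the PLC/PRF/5 line. The comparison called 68.6% of 17853 genes in either direction and 34.0% as higher in PLC/PRF/5, and of the 13711 genes measured in this way in both lines 31.6% were higher. CEBPA differed by 5.49 (SE 0.24, 44.9-fold) and ONECUT1 by 4.89 (SE 0.14, 29.6-fold), and only 2.43% and 3.34% of genes, respectively, differed by more. ONECUT2 differed by 1.75 (SE 0.25), FOXA1 by 1.65 (SE 0.11) and FOXA2 by 1.00 (SE 0.09). FOXA3 was at least 15.3-fold higher and HNF4A at least 2.81-fold higher in PLC/PRF/5, since SNU-449 gave only a bound, taken per array as the higher of the weakest signal well above background and the probe's own. These 2 passed the filter on dim probes through PLC/PRF/5 alone and could only come out higher there, so they are left out of the count. The median difference of the 5 was 1.75, against 0.00 for the genes measured in both lines. The direction held under the alternatives tried, but normexp background correction gave 3.56 for CEBPA, 1.83 for FOXA3 and 0.62 for HNF4A, and across settings FOXA3 reached 4.95 and HNF4A ran from 0.56 to 4.87. FOXA2 missed the stricter rule of fold above 2 with P below 0.001, which 34.4% of genes met.

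Of the other liver-enriched factors, 18 were measured in both untreated lines, and 12 of them were higher in PLC/PRF/5, 2 lower and 4 not called. Those lower were NR2F2, the nuclear receptor COUP-TF II, by -2.16, and ATF5, by -0.58. Another 5 were measured in PLC/PRF/5 only and could only come out higher there, among them CREB3L3, a hepatocyte factor of lipid metabolism (at least 246-fold), the liver development factors PROX1 (at least 30.1-fold) and GATA6 (at least 21.8-fold), and NR0B2, the repressor SHP (at least 27.6-fold). NR2F1 (COUP-TF I) was well above background on 2 of 3 control arrays of PLC/PRF/5 and on all 3 of SNU-449 and was lower in PLC/PRF/5, by -7.72. Of genes known to depend on HNF4A, 3 were measured in both lines and were higher in PLC/PRF/5, APOA1 by 7.49, SERPINA1 by 11.78 and TTR by a value between them, where 31.6% of all genes measured in both were higher. The other 6 were measured in PLC/PRF/5 only, among them the apolipoprotein genes APOA2 (at least 1773-fold) and APOB (at least 382-fold). Of 4 genes known to depend on FOXA or CEBPA and measured in both lines, 3 were higher in PLC/PRF/5, the fetal serum protein AFP by 5.15, CPS1 of the urea cycle by 1.99 and IGFBP1 by 9.98, and HAMP was not called. ALB, PCK1 and G6PC1, the catalytic subunit of glucose-6-phosphatase (at least 1353-fold), were measured in untreated PLC/PRF/5 only. No known NR1H4 target was measured in both untreated lines, 4 being so in PLC/PRF/5 only, and the phospholipid transporter ABCB4, measured in SNU-449 only, was at least 3.18-fold higher there.

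**Figure D2:**
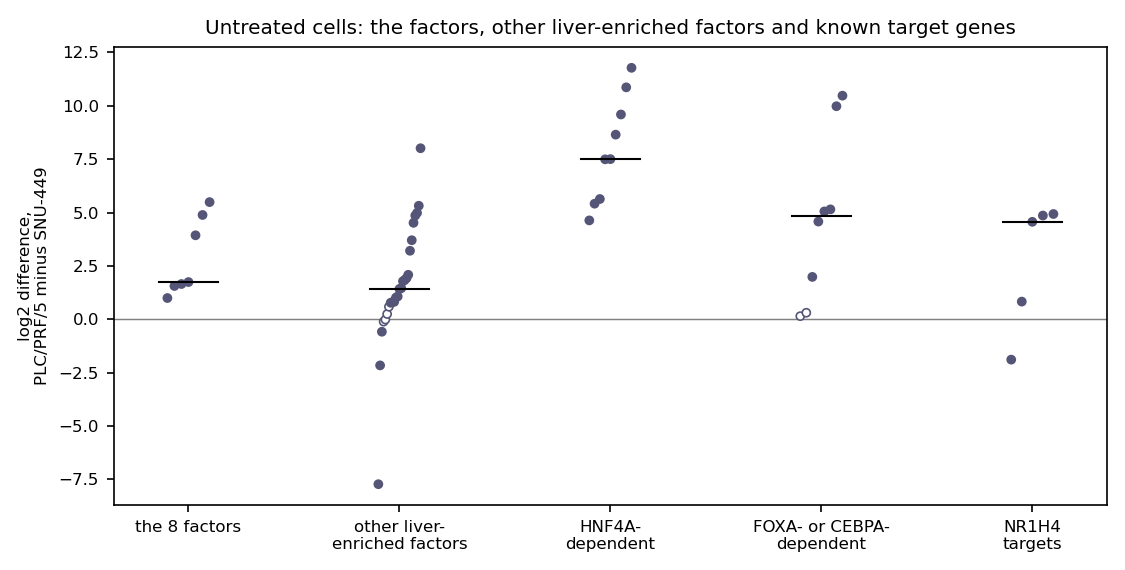
Difference between untreated PLC/PRF/5 and untreated SNU-449 (log2, 3 cultures each) for each tested gene of 5 lists. Points are genes, filled where the adjusted p is below 0.05, and black lines are list medians. The 7 factors tested lie above 0, HNF4A and FOXA3 because SNU-449 gave them no level above background, and NR2F1 is the lowest point of the other liver-enriched factors at -7.72.

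TGFβ1 lowered ONECUT2 in PLC/PRF/5, and ONECUT1 and FOXA2 in SNU-449. Of the 7 members tested in PLC/PRF/5, 1 was called, ONECUT2, which fell by 0.57 (SE 0.10, adjusted p = 0.00494). That count was near the share of all genes, 13.6% of 16636. The ONECUT2 call was lost under median scaling, no scaling, the methods' t-test, limma over all 24 arrays and the fold limit. The ONECUT1 arrays with TGFβ1 were all above control, but the difference of 0.27 (SE 0.08) gave an adjusted p of 0.0503, and that of CEBPA, 0.32 (SE 0.14), gave 0.175. Differences of HNF4A, FOXA1, FOXA2 and FOXA3 were between -0.17 and 0.21, with a 95% interval for HNF4A of -0.19 to 0.61. Without slide 2 or slide 3 the ONECUT2 call was lost, at differences of -0.53 and adjusted p of 0.0672 to 0.128, and without control culture 3 CEBPA was called, at 0.50 and an adjusted p of 0.0213. In SNU-449, 2 of 5 members tested were called, against 10.3% of 16054 genes: ONECUT1 fell by 1.61 (SE 0.18, adjusted p = 3.19e-04, 0.328-fold) and FOXA2 fell by 0.80 (SE 0.11, adjusted p = 0.00139, 0.574-fold). Only 0.810% of genes moved by more than ONECUT1. ONECUT2 differed by 0.54 (SE 0.32, adjusted p = 0.362) and CEBPA by -0.58 (SE 0.30, adjusted p = 0.279), and FOXA1 by 0.06 with a 95% interval of -0.20 to 0.31. Without slide 2 FOXA2 differed by -0.86 with an adjusted p of 0.0544.

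The TGFβ1 response differed between the lines for 2 members, against 8.63% of 17853 genes. PLC/PRF/5 minus SNU-449, the difference was 1.88 (SE 0.20, adjusted p = 3.12e-06) for ONECUT1 and 0.73 (SE 0.13, adjusted p = 7.13e-04) for FOXA2. For ONECUT2 it was -1.11 (SE 0.35, adjusted p = 0.0562), which became -1.23 with an adjusted p of 0.0496 without the first control array of SNU-449. The FOXA2 call was lost under median scaling and no scaling (adjusted p up to 0.284). Among the other liver-enriched factors, NR5A2 (LRH-1, a nuclear receptor of bile acid synthesis) rose with TGFβ1 in both lines, by 0.61 and 0.81. NR0B2 fell in PLC/PRF/5 by 0.63, and NR2F2 fell in SNU-449 by 0.68. In all, 3 of 24 other factors tested were called in PLC/PRF/5, a share near the 13.6% of all genes, and 4 of 20 in SNU-449, against 10.3%. Among HNF4A-dependent genes of PLC/PRF/5, 3 of 9 fell (APOA2 by 0.84, MTTP by 0.72, APOB by 0.66), 3 of 8 FOXA- or CEBPA-dependent genes fell (ALB by 0.94, PCK1 by 0.66, AFP by 0.49) and G6PC1 rose by 0.42, beside the single call among the factors themselves and the 13.6% of all genes called. SLC51B, a bile acid exporter and known NR1H4 target, fell by 1.44 in PLC/PRF/5, where NR1H4 was not well above background.

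**Figure D3:**
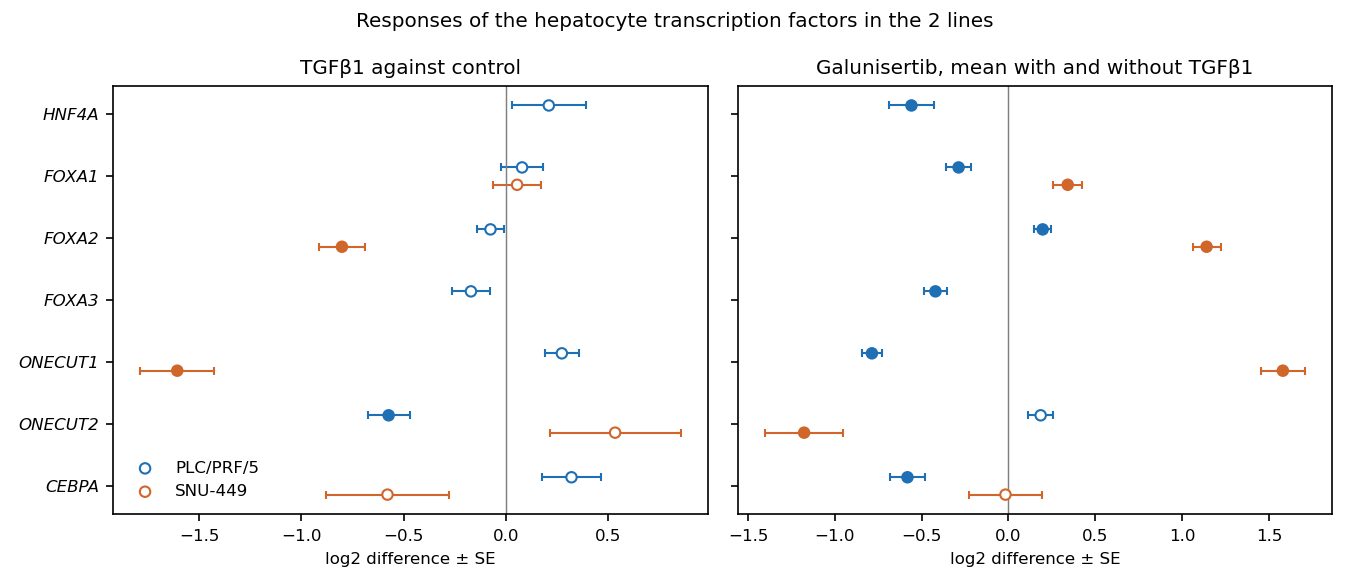
Differences in log2 level with their SE for TGFβ1 against control (left, 3 arrays against 3) and for galunisertib averaged over cultures with and without TGFβ1 (right, 6 against 6). Filled points have an adjusted p below 0.05. ONECUT1 lies on opposite sides of 0 in the lines on the right, at -0.79 in PLC/PRF/5 and 1.58 in SNU-449.

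Galunisertib alone moved FOXA3 and ONECUT1 down and FOXA2 up in PLC/PRF/5, where 3 of 7 members tested were called against 5.41% of genes. ONECUT1 fell by 0.63 (SE 0.08, adjusted p = 0.00320), FOXA3 fell by 0.53 (SE 0.09, adjusted p = 0.0117) and FOXA2 rose by 0.27 (SE 0.07, adjusted p = 0.0454). HNF4A, FOXA1 and CEBPA differed by -0.45, -0.34 and -0.35 with adjusted p of 0.168, 0.0844 and 0.178, and ONECUT2 by -0.17 with 0.353. The FOXA2 call was lost whichever 1 culture of either group was left out (0.23 to 0.30, adjusted p up to 0.119) or any 1 slide (adjusted p up to 0.289) and under the fit with a replicate block, the FOXA3 and ONECUT1 calls were lost without any 1 slide (adjusted p up to 0.220 and 0.138), and without the first control array FOXA1 was called at -0.44. In SNU-449, 4 of 5 members were called, against 7.29% of genes. FOXA2 rose by 1.02 (SE 0.11, adjusted p = 8.72e-04), ONECUT1 rose by 0.97 (SE 0.18, adjusted p = 0.0120), FOXA1 rose by 0.46 (SE 0.12, adjusted p = 0.0417) and ONECUT2 fell by 1.54 (SE 0.32, adjusted p = 0.0198). CEBPA differed by 0.07 with a 95% interval of -0.60 to 0.74. Without 1 slide the ONECUT1, ONECUT2 and FOXA1 calls were lost for each slide (adjusted p up to 0.191, 0.169 and 0.265) and that of FOXA2 was lost for slide 2 (0.96, adjusted p = 0.0566). FOXA1 was also lost under the fit with the replicate number as a block and without control culture 1 or 3 or galunisertib culture 1 or 3, and ONECUT2 without control culture 1 or 2, with adjusted p within the same limits.

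In cells given TGFβ1, galunisertib lowered 4 members and raised 1 in PLC/PRF/5, and raised 2 in SNU-449. In PLC/PRF/5, 5 of 7 were called, against 39.1% of genes, and ONECUT1 fell by 0.94 (SE 0.08, adjusted p = 2.14e-05), CEBPA by 0.82 (SE 0.14, adjusted p = 0.00135), HNF4A by 0.67 (SE 0.18, adjusted p = 0.0145) and FOXA3 by 0.31 (SE 0.09, adjusted p = 0.0242). ONECUT2 rose by 0.54 (SE 0.10, adjusted p = 0.00210), back to its control range. The HNF4A call was lost without slide 2 or 3, TGFβ1 culture 3 or culture 2 with both agents (adjusted p up to 0.105), and the FOXA3 call without any 1 slide, TGFβ1 culture 1 or 2, or culture 3 with both agents (adjusted p up to 0.136). In SNU-449, 2 of 5 were called, against 17.0% of genes: ONECUT1 rose by 2.19 (SE 0.18, adjusted p = 2.66e-05, 4.57-fold) and FOXA2 by 1.27 (SE 0.11, adjusted p = 4.79e-05, 2.40-fold). Both then stood above their untreated level on every array.

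With galunisertib present, TGFβ1 lowered FOXA2 in SNU-449 and gave no call in PLC/PRF/5. In PLC/PRF/5, limma called 0 of 7 members, against 8.48% of genes, with 1 at an unadjusted p below 0.05 (FOXA2, -0.22) and 0 by the methods' t-test. In SNU-449, 1 of 5 was called, against 1.86% of genes, and FOXA2 was lower by -0.55 (SE 0.11, adjusted p = 0.0403). That call was lost without any 1 slide, without culture 1 or 2 with galunisertib, and without culture 1 or 2 with both agents (-0.71 to -0.39, adjusted p up to 0.293). It was also lost with the replicate number as a block. ONECUT2 differed by 1.26 (SE 0.32, adjusted p = 0.0884) and was called without galunisertib culture 1, at 1.64 and an adjusted p of 0.0158. Of a check list of 4 known TGFβ targets, SMAD7 among them, all 4 were still higher with TGFβ1 under galunisertib in SNU-449. Their median difference was 1.74, against 1.16 with TGFβ1 alone, where 3 were called. In PLC/PRF/5, 0 of the 3 tested were called under galunisertib, and 3 with TGFβ1 alone. How far galunisertib blocked TGFβ1 in each line was not tested.

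Averaged over cultures with and without TGFβ1, galunisertib lowered 5 of the 7 members tested in PLC/PRF/5 and raised 1, in a comparison that called 37.4% of genes, 26.0% as higher and 11.5% as lower. Of all genes called, 69.4% were higher, but 39.9% were when the percentile came from the 19267 probes detected throughout, so the direction of the background changed with scaling. ONECUT1 was the member called under all scalings tried, and with no scaling it was the only one. FOXA1 lost its call under median scaling, no scaling and normexp, and FOXA2 under median scaling, no scaling, the percentile from detected probes and quantile normalization, which gave it 0.06 (adjusted p = 0.345). Besides no scaling, FOXA3 lost its call under median scaling and HNF4A under normexp. ONECUT1 fell by 0.79 (SE 0.06, adjusted p = 8.21e-06), CEBPA by 0.58 (SE 0.10, adjusted p = 0.00139), HNF4A by 0.56 (SE 0.13, adjusted p = 0.00642), FOXA3 by 0.42 (SE 0.07, adjusted p = 8.14e-04) and FOXA1 by 0.29 (SE 0.07, adjusted p = 0.0101). FOXA2 rose by 0.20 (SE 0.05, adjusted p = 0.00817), and ONECUT2 differed by 0.19 (adjusted p = 0.0679). The ONECUT2 average joined unlike effects, -0.17 with galunisertib alone and 0.54 on TGFβ1. The median over the 7 was -0.42 against 0.05 for all genes. Without 1 slide, FOXA2 lost its call for each slide (adjusted p up to 0.130), FOXA1 for slides 2 and 3 (adjusted p up to 0.131) and HNF4A for slide 2 (-0.47, adjusted p = 0.0584), and without control culture 3 ONECUT2 was called at 0.23.

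In SNU-449 galunisertib raised 3 of 5 members on average and lowered 1, where 21.5% of genes were called, 13.9% as higher and 7.52% as lower. Of all genes called, 64.9% were higher, and 27.8% were with no scaling. ONECUT1 rose by 1.58 (SE 0.13, adjusted p = 2.03e-05, 2.99-fold), FOXA2 by 1.14 (SE 0.08, adjusted p = 9.34e-06, 2.21-fold) and FOXA1 by 0.34 (SE 0.08, adjusted p = 0.0147), each with all 6 galunisertib arrays above the other 6. ONECUT2 fell by 1.18 (SE 0.23, adjusted p = 0.00459, 0.442-fold), and CEBPA differed by -0.02 with a 95% interval of -0.49 to 0.45. The FOXA1 call was lost under median scaling and no scaling (adjusted p up to 0.391) and without any 1 slide (0.23 to 0.43, adjusted p up to 0.133), and the ONECUT2 call without slide 2 (-1.23, adjusted p = 0.0736). These averages use the same control arrays as the comparisons above and are not further evidence.

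The galunisertib response differed between the lines for ONECUT1, FOXA2, FOXA1 and ONECUT2, all measured in both, in a test that called 6 of 7 members against 25.9% of 17853 genes. PLC/PRF/5 minus SNU-449, the difference was -2.37 for ONECUT1 (SE 0.14, adjusted p = 1.32e-09), which ranked 40 by size among all genes tested. It was -0.94 for FOXA2 (SE 0.09, adjusted p = 2.81e-07), -0.63 for FOXA1 (SE 0.11, adjusted p = 2.84e-04) and 1.36 for ONECUT2 (SE 0.25, adjusted p = 4.53e-04). The ONECUT2 average of PLC/PRF/5 joined -0.17 with galunisertib alone and 0.54 on TGFβ1, against -1.54 and -0.82 in SNU-449. With median scaling and no scaling the FOXA1 difference was -0.44 and -0.45 and not called (adjusted p up to 0.209). ONECUT1 moved in opposite directions in the lines, and so did FOXA1, while FOXA2 was called higher in both, by 0.20 in PLC/PRF/5 and by 1.14 in SNU-449. The FOXA1 calls within each line and the FOXA2 call in PLC/PRF/5 were lost under median scaling and no scaling. They were also lost when single slides were left out. HNF4A and FOXA3 were also called, at -0.56 and -0.36, but SNU-449 gave no level above background for either, so neither value holds an SNU-449 response. That of HNF4A is the PLC/PRF/5 effect itself, and that of FOXA3 departs from its PLC/PRF/5 effect of -0.42 through 1 control array of SNU-449, at -3.74 and not well above background. The calls were lost without slide 2 for HNF4A (adjusted p = 0.0867) and without slide 2 or 3 for FOXA3 (adjusted p up to 0.165). CEBPA differed by -0.56 (SE 0.24, adjusted p = 0.0999), and by -0.69 with an adjusted p of 0.0347 without SNU-449 culture 2 with both agents.

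Other liver-enriched factors gave both directions. In PLC/PRF/5, 6 of 24 tested rose with galunisertib on average, a share near the 26.0% of all genes, and 8 fell, against 11.5%, with a median of 0.04. CREB3L3 fell by 0.81, MLXIPL (ChREBP, a glucose-responsive factor) by 0.41, RXRA, the partner of NR1H4 and other nuclear receptors, by 0.40, and PROX1 by 0.37. HNF4G, a paralog of HNF4A, was also called lower, but was well above background on none of 3 arrays with galunisertib alone and 1 of 3 with both agents, so its size is not given. CEBPB and ATF5 rose by 0.41 and 0.42. In SNU-449, 3 of 20 rose and 3 fell, against 13.9% and 7.52%. CEBPB and NR2F2 rose by 0.66 and 0.61 and NR5A2 fell by 0.64, and ONECUT3 was called lower but was well above background on none of the 6 galunisertib arrays. CEBPB, a CEBPA relative of the acute phase response, thus rose in both lines, whereas CEBPA fell in PLC/PRF/5 and differed by -0.02 in SNU-449.

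Known targets of the factors moved in both directions. Among HNF4A-dependent genes in PLC/PRF/5, 5 of 9 fell with galunisertib on average (APOC3 by 0.80, F7 by 0.51, APOA1 by 0.47, TF by 0.35, TTR by 0.21), 2 rose (APOA2 by 0.51, APOB by 0.31) and 2 were not called. Of all genes, 11.5% fell and 26.0% rose, so the share of targets that rose was near that of all genes. These averages of the targets join unlike effects, from comparisons that called 5.41% of genes for galunisertib alone and 39.1% on TGFβ1. Galunisertib alone lowered TTR by -0.69 (adjusted p = 0.00555) and raised none, APOA2 and APOB differing by -0.01 and -0.14, whereas on TGFβ1 it raised APOA2 by 1.03, MTTP by 0.83 and APOB by 0.76 and lowered APOC3 by -1.05. Among FOXA- or CEBPA-dependent genes, 2 of 8 fell, the gluconeogenic genes G6PC1 by 0.99 and PCK1 by 0.37, and 6 were not called. The share called did not exceed the 37.4% of all genes called on that average. Alone, galunisertib lowered ALB by -0.97, G6PC1 by -0.89 and PCK1 by -0.88, and on TGFβ1 it raised CPS1 by 1.20, AFP by 0.54 and ALB by 0.49 and lowered G6PC1 by -1.10, with PCK1 at 0.14 (adjusted p = 0.566). The difference between galunisertib alone and on TGFβ1 was not tested. Among NR1H4 targets, KNG1 fell by 0.84 on average, and UGT2B4 was called lower but was at the floor on the 6 galunisertib arrays. SLC51B and NR0B2 rose by 1.35 and 0.23, out of 4 tested and against 37.4% of all genes called. NR1H4 itself was not well above background. With galunisertib alone 0 of the 4 were called higher and 1 lower, and on TGFβ1 2 were called higher and 2 lower. The mean NR0B2 level was 0.73 in control and 0.61 with galunisertib alone, and 0.10 with TGFβ1 and 0.69 with both agents. That of SLC51B was 0.43 in control and 0.91 with galunisertib alone. In SNU-449, where 21.5% of all genes were called, limma called 0 of 3 HNF4A-dependent genes tested, with 0 at an unadjusted p below 0.05. IGFBP1, a hepatic insulin-like growth factor binding protein, was the 1 called of 4 FOXA- or CEBPA-dependent genes, a share near that of all genes. It rose by 1.67 and fell by 1.69 with TGFβ1, but both values use the same control and TGFβ1 arrays, so the opposite directions are not independent.

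**Figure D4:**
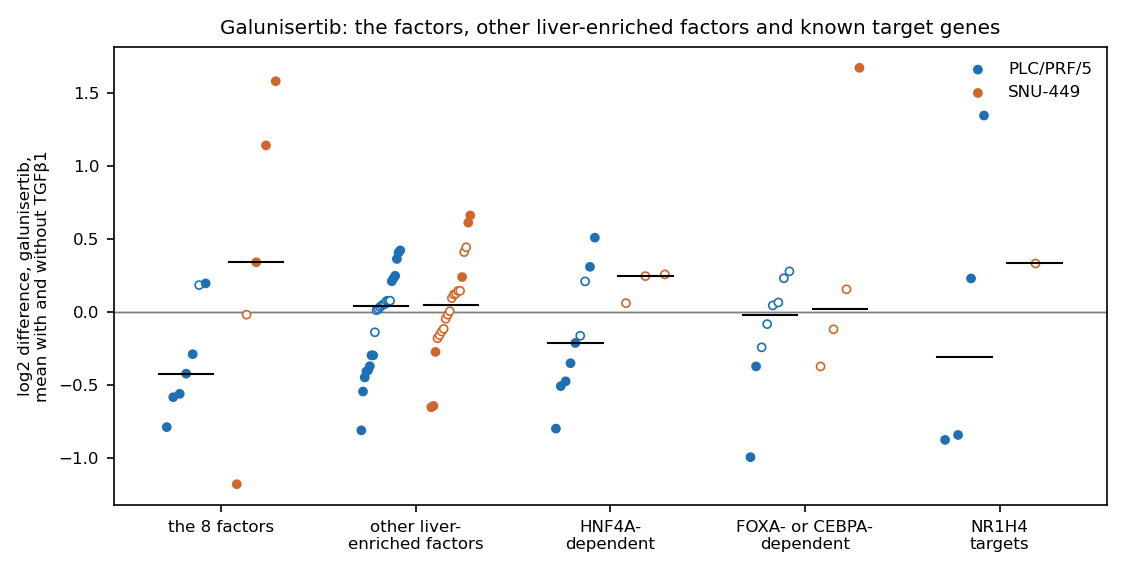
Mean effect of galunisertib with and without TGFβ1 (log2 difference, 6 arrays against 6) for each tested gene of 5 lists in each line. Points are genes, filled where the adjusted p is below 0.05, and black lines are list medians, which for the factors are -0.42 in PLC/PRF/5 and 0.34 in SNU-449.

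The genes whose levels followed a member most closely were taken over the 12 arrays of a line as the highest Pearson r among 14828 genes in PLC/PRF/5 and 13960 in SNU-449, as a description over arrays that share treatments and slides. ONECUT1 in PLC/PRF/5 ran closest with HPN, encoding the serine protease hepsin (r = 0.988), ESPN (0.985) and C3P1 (0.984), and in SNU-449 with SORBS2 (0.984), RNF144B (0.984) and SGK2 (0.984). FOXA2 in SNU-449 ran closest with MAP2K3 (0.996), SPRY1 (0.993) and NME3 (0.992), and in PLC/PRF/5 with RMND5B (0.966), C6orf136 (0.962) and MIEN1 (0.957). FOXA1 was nearest to TAB3 (0.969) in PLC/PRF/5 and to NME7 (0.976) in SNU-449, and ONECUT2 to IVD (0.948) and SERTAD4 (0.962), respectively. In PLC/PRF/5 the nearest genes were SLC23A1 for FOXA3 (0.928), SLC25A30-AS1 for CEBPA (0.947) and HACD2 for HNF4A (0.911). For the 4 members measured on all arrays of both lines, the 3 nearest genes had none in common between the lines. How often this holds for other genes was not computed, so it is not read as a trait of the members.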

How the data were processed

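The members and the gene lists were chosen with earlier results of these data known. Genes were named as follows: all 8 members, the members of each list that were called, and the 3 genes most like a member. Per the file headers, the authors scanned 24 one-colour Agilent SurePrint G3 arrays with Feature Extraction 10.7.3.1, and deposited processed intensity values, background-corrected. The authors also deposited a log2 table of 30913 rows, each centred on its median. Its differences between arrays were checked against those computed here (r 0.999, slope 1.00, 19267 probes), and it served as an alternative.

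Spots of a probe were averaged without outlier-flagged spots, divided by the array's 75th percentile, floored at 5.70% of it (each array's weakest signal well above background, as a median) and log2-transformed. Of 58201 probes, 31104 were named by RefSeq accession and 10719 by an LNCipedia identifier of a long noncoding RNA. Both kinds count as genes here and in the shares of all genes. A probe was tested if well above background on all arrays of at least 1 group of the fit, and a gene was read by its brightest such probe. limma 3.58.1 in R 4.3.3 was fitted over the 12 arrays of a line, or over all 24 between lines. A gene was called at a Benjamini-Hochberg adjusted p below 0.05 over all genes tested. The study's limits, fold above 2 with P below 0.001, stand beside it. The code was tested on simulated data. With 3 arrays in a group, precision is limited.

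The replicate number is also the slide. Same-numbered arrays deviated together, with correlations of 0.13 to 0.30, for TGFβ1 in both lines, and of 0.10 to 0.27 for galunisertib added to TGFβ1 in SNU-449. In the other comparisons at least 1 of the 3 pairs was at or below 0.1. The alternatives covered scaling, background correction, floor, probe filter, test, block and left-out arrays. Normexp used median foreground signals in place of the planned means. Some genes the study names are not reported here.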

Additional observations from a re-analysis of the deposited data

Results flagged for a closer look

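The response to galunisertib, averaged over cultures with and without TGFβ1, differed between the lines by a test of the difference itself. PLC/PRF/5 minus SNU-449, it was -2.37 for ONECUT1, with all 6 galunisertib arrays below the other 6 in PLC/PRF/5 and above them in SNU-449. It was -0.94 for FOXA2 and -0.63 for FOXA1, and 1.36 for ONECUT2. With galunisertib alone ONECUT2 differed by -0.17 in PLC/PRF/5, where it was not called, and by -1.54 in SNU-449. The TGFβ1 response also differed between the lines, by 1.88 for ONECUT1 and by 0.73 for FOXA2. The FOXA1 difference for galunisertib and the FOXA2 difference for TGFβ1 were not called under median scaling and no scaling. Each line had its own columns of every slide, 1 and 2 for PLC/PRF/5 and 3 and 4 for SNU-449. Array position therefore cannot be told apart from line or treatment, and its part was not tested.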

How the results depend on the processing

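No called direction of a member reversed among 1232 results from alternative settings or 969 from left-out arrays, over 81 differences, while 135 and 70 calls changed. Each fit gave such a result for every member tested, and the fold limit reused the main fit, so the fits were fewer. Counts of members called moved as follows where they left a tolerance of 1.5 times, and the cause was not tested unless the setting drops members. When each probe had to be well above background on every array, 4 were left in untreated cells, since HNF4A, FOXA3 and CEBPA were no longer tested, and 2 were called for TGFβ1 in PLC/PRF/5.

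For TGFβ1 in PLC/PRF/5 (1 called), median scaling, no scaling, limma over 24 arrays, the methods' t-test and the fold limit gave 0. The percentile from the 19267 probes detected throughout, quantile normalization, the mean of all probes and a floor at 200%, chosen after seeing the data, gave 2, and normexp gave 3. For TGFβ1 in SNU-449 (2) median scaling and the fold limit gave 1. For galunisertib in PLC/PRF/5 (3), median scaling, no scaling and the fold limit gave 0, and normexp, the t-test and limma on the compared groups only gave 1. In SNU-449 (4), no probe filter and the fold limit gave 2, limma on the compared groups only gave 1 and the t-test gave 0. For galunisertib on TGFβ1 in PLC/PRF/5 (5), median scaling, normexp and the t-test gave 3, no scaling gave 1 and the fold limit gave 0. For TGFβ1 under galunisertib in PLC/PRF/5 (0), the percentile from those probes, quantile normalization, the floor at 200% and no probe filter gave 1. In SNU-449 (1), limma over 24 arrays gave 2, and 0 came from median scaling, no scaling, that percentile, quantile normalization, no probe filter, the authors' table, the replicate block, the t-test, limma on the compared groups only and the fold limit. For the mean galunisertib effect in PLC/PRF/5 (6), median scaling gave 3, no scaling 1 and the fold limit 0. For the line difference of that effect (6), median scaling and no scaling gave 3 and the fold limit 2. Within that tolerance, the mean effect in PLC/PRF/5 gave 4 with normexp, 5 with quantile normalization and the percentile from those probes, and 7 with the replicate block. Its line difference gave 4 with the authors' table and with probes measured on every array, 5 with quantile normalization and a floor at 50%, and 7 with that percentile, the floor at 200% and the block. Other counts within it moved by at most 1. For that of TGFβ1 (2), median scaling, no scaling and the fold limit gave 1. The t-test and the fit on the compared groups were not applied to line differences.

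Leaving out arrays gave 7 to 7 members in untreated cells, 0 to 2 for TGFβ1 in PLC/PRF/5 and 1 to 2 in SNU-449, 0 to 3 and 0 to 4 for galunisertib, 3 to 5 and 2 to 2 for galunisertib on TGFβ1, 0 to 0 and 0 to 1 for TGFβ1 under galunisertib, 3 to 7 and 2 to 4 for the mean galunisertib effect, and 4 to 7 and 2 to 3 for the line differences of galunisertib and TGFβ1. The 7 of untreated cells include HNF4A and FOXA3, which could only come out higher in PLC/PRF/5. At the study's limits the methods' t-test called 4 members in untreated cells, FOXA3 among them, against 4851 of 17853 genes. In SNU-449 it called 2 for galunisertib on TGFβ1, against 380 of 16054 genes. It called 1 each there for galunisertib alone and on average, against 68 and 94 genes, and 0 in the other comparisons within a line.

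With the replicate number as a block, the 3 comparisons in which the numbers paired the arrays kept their member calls. In the others, FOXA2 for galunisertib in PLC/PRF/5, FOXA1 for galunisertib in SNU-449 and FOXA2 for TGFβ1 under galunisertib in SNU-449 (0 called) lost theirs, and CEBPA in both line differences and ONECUT2 in the mean effect in PLC/PRF/5 gained one. The median of all genes moved with scaling or background correction, from -0.28 to 0.20 in untreated cells, from -0.08 to 0.18 for mean galunisertib in PLC/PRF/5, from -0.10 to 0.05 in SNU-449, from -0.03 to 0.21 for TGFβ1 in PLC/PRF/5 and from -0.04 to 0.15 in SNU-449. HNF4A, CEBPA in SNU-449 and NR1H4 lay near or below the background limit, so smaller changes there were not detectable.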
